A study of Gallus gallus with 21 samples.

Results

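The testis of the chicken embryo was compared with the brain of the same sex, to see which genes set the male gonad apart from a somatic tissue of male embryos. The comparison took 7 of the 21 arrays of the series, 4 from the left gonad of male embryos 9, 16, 19 and 21 and 3 from the brain of male embryos 16, 19 and 21. All embryos were White Leghorn chickens (Gallus gallus) after 18 days of incubation, untreated and with no altered allele, and the sex was read from the gonads and Müllerian ducts. The brain piece was the diencephalon with what was left of other regions once the hemispheres, the cerebellum and the optic lobes had been cut away. The brain array of embryo 9 had failed the quality criteria of the study and was not used. Gonad RNA was extracted with another kit (RNeasy Micro) than brain RNA (PureLink Micro-to-Midi), in both sexes, so tissue and extraction cannot be told apart in any difference below. The ovary (3 arrays) and the female brain (4 arrays) served only to show where the testis differed from the female gonad.

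By this age the embryonic testis holds Sertoli cells, which surround the germ cells in cords and secrete anti-Müllerian hormone, and interstitial cells, among them Leydig cells that make steroid hormones and the muscle-like cells of the cord wall. Male germ cells are not yet in meiosis, whereas germ cells of the left ovary have entered it. The diencephalon comprises hypothalamus and thalamus and holds peptide-secreting neurons, and myelin is being formed in it. Both tissues are mixtures, so a lower level can mean fewer cells of a type or less RNA per cell, and bulk RNA cannot tell these apart.

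Levels were log2 values of the chicken Affymetrix array, 1 value per probe set and array. Of 19874 probe sets, 13431 had values in both tissues and were tested, 3068 had values in the gonads and were left blank for brain, 2682 had values in brain and were left blank for the gonads, and 693 were blank in both. A probe set was called when the fold-change exceeded 1.5 and the adjusted p from limma was under 0.05. By this rule 58.2% of the probe sets were called, of which 4646 (34.6%) were higher in testis and 3176 (23.6%) were lower. Counted with 1 probe set per gene, 59% of the genes were called. Of these 2694 of 7533 genes (35.8%) were higher in testis and 1751 (23.2%) lower, and these shares are the background for the gene groups below. With each array centred on its own median, 4114 probe sets were higher and 3527 lower, and after a new quantile normalization 4306 and 3379. By measured difference the lower calls had the larger folds. Over 10-fold, 534 probe sets were lower and 286 higher, and over 100-fold 85 were lower and 13 higher. These counts include probe sets with a mean under 4.0, the background bound used below, which 339 had in testis and 175 in brain. Such folds are only bounds, so the size of this excess is not settled. The median difference over all probe sets was 0.21, and it was 0.09 once each array was centred on its own median, so differences of that order have no settled direction.

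Arrays of a tissue resembled each other closely. Pearson correlations over the tested probe sets were 0.970 to 0.981 among brains, 0.975 to 0.982 among testes and 0.700 to 0.741 between the tissues. The median SD over probe sets was 0.21 in testis and 0.23 in male brain. The arrays of the 2 tissues did not overlap in 66.6% of the probe sets. In each tissue every probe set with values had a mean of at least 4.0 in 1 sex or the other. A gonad gene with a testis mean under 4.0 thus always had an ovary mean of at least 4.0. A level under 4.0 is treated here as not told apart from background. Where the lower mean lay there, the fold is given as a bound, the brighter mean against 4.0. In what follows, brain values are in the order of embryos 16, 19 and 21, and testis values in the order of embryos 9, 16, 19 and 21.

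The tissue labels were checked against defining markers. The testes had AMH, the anti-Müllerian hormone of Sertoli cells, at 14.22, 14.44, 14.04 and 14.31, and CYP17A1, an enzyme of androgen synthesis, at 14.63, 14.21, 14.73 and 14.37. Both were left blank for brain, which need not mean a low level. The ovary means were 13.02 for AMH and 14.87 for CYP17A1, so both genes were high in either gonad. FOXL2, a transcription factor of the ovary, was at background in the testes, between 2.57 and 2.58, against a mean of 6.98 in the ovaries. Its gonad values were kept only through the ovary mean. The brains had AVP, the vasotocin precursor gene of the hypothalamus, at 11.18, 10.15 and 10.93, NKX2-1, a hypothalamic transcription factor, at 7.78, 7.42 and 8.22, and SIX3, a forebrain factor, at 6.22, 4.98 and 6.14. These were left blank for the gonads. Some genes of the regions cut away also had brain values, among them EN1, of the midbrain and cerebellum, at 7.95, 7.35 and 7.50. None of 12 pituitary genes had a value in either tissue. Not every marker followed the labels. NEFL, a neurofilament chain, had testis values and was left blank for brain, and SOX9, of Sertoli cells, overlapped between the tissues.

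**Figure D1:**
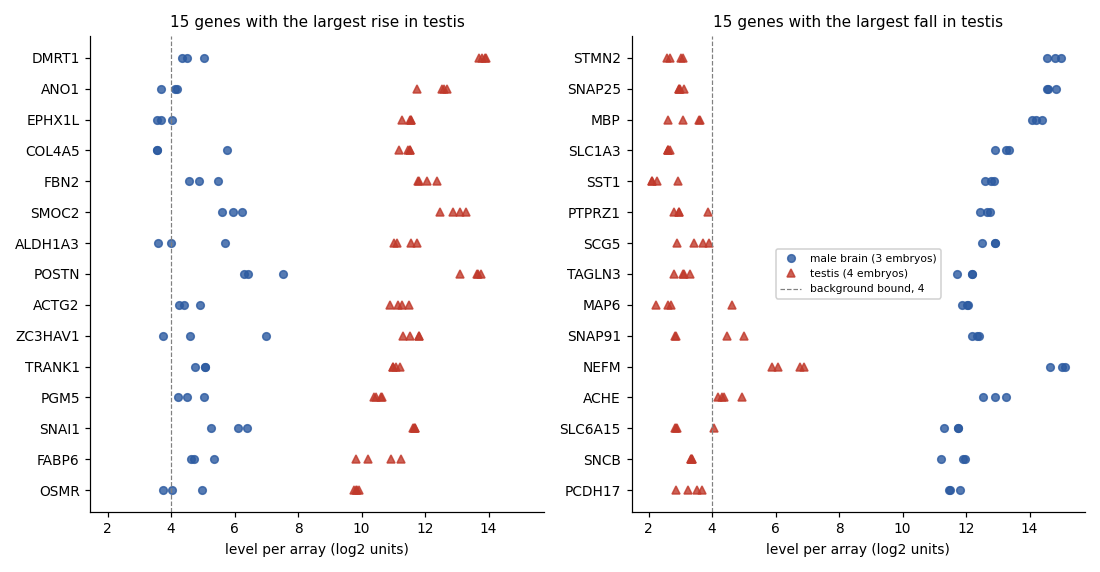
Levels on each array (x axis, log2 units) of the 15 genes with the largest rise and the 15 with the largest fall in testis among called genes whose arrays did not overlap. Blue circles are the 3 male brains, red triangles the 4 testes, and the dashed line marks 4.0, under which a level is not told apart from background. DMRT1 stood near 14 in every testis and STMN2 near 15 in every brain, with the other tissue at or close to background.

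DMRT1, a Z-linked transcription factor needed for testis formation in birds, showed the largest rise among the called genes. It read 4.34, 4.50 and 5.03 in the brains and 13.70, 13.79, 13.90 and 13.91 in the testes, a log2 difference of 9.20 ± 0.16 (SE, adjusted p = 2.75e-14, limma) or 589-fold. Every testis lay far above every brain. The ovaries had DMRT1 at 13.45 ± 0.11 (SD, n = 3), and the tissue difference was not shown to differ between the sexes (male minus female difference 0.16 ± 0.22). ANO1, a calcium-activated chloride channel, came next with 12.68, 12.60, 11.75 and 12.53 in testis and 4.18, 3.69 and 4.12 in brain, at least 336-fold higher. COL4A5, a basement membrane collagen chain, read 11.53, 11.47, 11.17 and 11.54 in testis and 3.56, 5.76 and 3.55 in brain, so that brain 19 was the highest of the 3 brains. The remaining 12 genes of this group rose by 5.58 to 7.73 on the log2 scale. Among them were the matrix proteins FBN2, SMOC2 and POSTN, the retinoic acid synthesising enzyme ALDH1A3, the smooth muscle actin ACTG2, the transcription factor SNAI1 and the cytokine receptor OSMR.

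Sertoli cell genes moved both ways. Of 13 measured members, 6 rose and 5 fell, with a median of 0.82 against 0.24 over all genes. The median was 0.49 without brain 16 and 0.46 without testis 21, and 4 members rose without brain 19. INHBB, a subunit of inhibin and activin, read 6.51, 6.64 and 7.22 in brain and 11.83, 12.33, 12.09 and 12.21 in testis, a 40.0-fold rise (log2 difference 5.32 ± 0.19, adjusted p = 2.4e-11). HEMGN, a Z-linked gene expressed in chicken Sertoli cells, rose by 4.67 ± 0.29 (adjusted p = 8.97e-11). SOX9, the transcription factor that marks Sertoli cells, rose by only 1.03 ± 0.31 (adjusted p = 0.00948): it read 7.90, 8.96, 8.35 and 8.38 in testis but also 8.06, 6.47 and 7.55 in brain, and testis 9 lay below brain 16. Without brain 19 the difference was 0.59 and did not pass (adjusted p = 0.0503). The members that fell are also made in brain, namely PTGDS (prostaglandin D synthase, 130-fold lower), SOX10 (a factor of oligodendrocytes, at least 57.1-fold lower), SOX8 (34.9-fold lower), ERBB4 (10.8-fold lower) and CST3 (cystatin C, 3.51-fold lower). Of this group 3 members were left blank for brain: besides AMH, they were INHA, the inhibin alpha subunit, at 9.12 to 10.05 in the testes, and FSHR, the receptor of follicle-stimulating hormone, at 6.87 to 8.51.

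The main genes of steroid hormone synthesis could not be tested, because 5 of them had no brain value. In the testes CYP11A1, which makes the first steroid from cholesterol, read 12.43, 12.32, 12.39 and 12.33. STAR, which brings cholesterol into mitochondria, read 11.13, 10.25, 10.61 and 10.59, and HSD3B1 read 11.56 to 12.23. HSD17B1, which makes oestradiol from oestrone, was at background with 1.82 to 1.83 in the testes and 11.48 ± 0.30 in the ovaries. Its gonad values, too, were kept only through the ovary mean. Of the 9 tested members, which include the shared electron donors and lipid carriers, 2 rose and 3 fell. POR, the reductase that supplies electrons to these cytochromes, rose from 6.62, 6.40 and 6.42 in brain to 8.85, 8.65, 9.04 and 9.16 in testis (2.44 ± 0.20, adjusted p = 3.14e-09), and SRD5A3 rose by 0.85 ± 0.27. CYP19A1, the aromatase that makes oestrogen, was at background in the testes, between 2.36 and 2.42. The brains lay above, at 3.15, 4.81 and 5.03 (adjusted p = 0.00126, limma), but the value of 3.15 was also under 4.0. The fold of CYP19A1 is thus only a bound, and the size of its fall is not settled. With a mean of at least 4 required in both tissues, 2 of 8 genes of this group rose and 2 fell.

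Of 8 hormone receptor genes tested, 2 rose and 4 fell, and 4 rose without brain 21. LHCGR, the luteinising hormone receptor, read 10.17, 9.43, 9.76 and 9.40 in testis and 5.16, 5.46 and 5.30 in brain (20.9-fold, adjusted p = 4.92e-08), and GHR, which binds growth hormone, rose 16.5-fold. RXFP1, a relaxin receptor, INSR, the insulin receptor, and the activin receptors ACVR2A and ACVR2B were lower in testis. Another probe set of INSR did not pass (-0.19). PGR, the progesterone receptor, was left blank for brain and read 8.65 to 9.45 in the testes. ESR1, the oestrogen receptor, read 3.77 to 3.84 in testes 16, 19 and 21 and 5.04 in testis 9.

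Of 33 germ cell genes listed, 19 had no value in either tissue and 9 had values in the gonads only, of which 2, MAEL and TDRKH, had a testis mean under 4.0. DDX4, the vasa helicase of germ cells, read 8.53, 9.28, 9.55 and 8.87, and DAZL, an RNA-binding protein of germ cells, 8.92, 9.36, 9.97 and 9.61. PIWIL1, a protein that binds piRNAs to silence transposons, was tested. It read 7.32, 9.40, 9.21 and 9.14 in testis and 3.97, 4.35 and 3.83 in brain (26.3-fold, adjusted p = 4.37e-09), with testis 9 the lowest of the testes. DDX4 and DAZL were also lowest in testis 9, as was MOV10L1, a helicase of the piRNA pathway, at 5.56 against 6.63 to 7.57. Of the 5 tested genes of this group 2 rose, PIWIL1 and TDRD7, and 2 fell, KIT and ID4, both of which are also made outside the germ line.

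Of 28 listed genes of meiosis, 15 had values in the gonads only, and 10 of these had a testis mean under 4.0. Among these STRA8, the retinoic acid response gene that opens meiosis, read 2.22 to 3.13 in the testes, SPO11, which makes the DNA breaks of recombination, 2.10 to 2.11, SYCP1, of the synaptonemal complex, 2.18 to 2.21, and DMC1, a recombinase, 2.52 to 2.61. The ovaries had them at 8.07, 8.70, 8.54 and 6.87. Gonad genes with a testis mean under 4.0 kept values only through an ovary mean of at least 4.0. For these genes it was therefore fixed beforehand that the ovary was higher, though not by how much. SYCP3 and HORMAD1, of the meiotic chromosome axis, were above background in the testes at 8.16 to 9.08 and 8.16 to 9.07. Of the 6 tested, MND1, PSMC3IP and STAG3 rose and RAD21L1 fell, the last by 0.76. The RAD21L1 call was lost when brain 19, brain 21, testis 16 or testis 21 was left out (0.53 to 0.71 lower). It was also lost in a fit of only the arrays compared (adjusted p = 0.0745). Another probe set of STAG3 did not pass (0.11). MND1, a partner of the recombinases, read 11.74, 11.90, 11.57 and 11.88 in testis and 8.24, 8.50 and 8.09 in brain (11.3-fold, adjusted p = 1.29e-12), but 2 other probe sets of it did not pass, at -0.22 and -0.15.

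**Figure D2:**
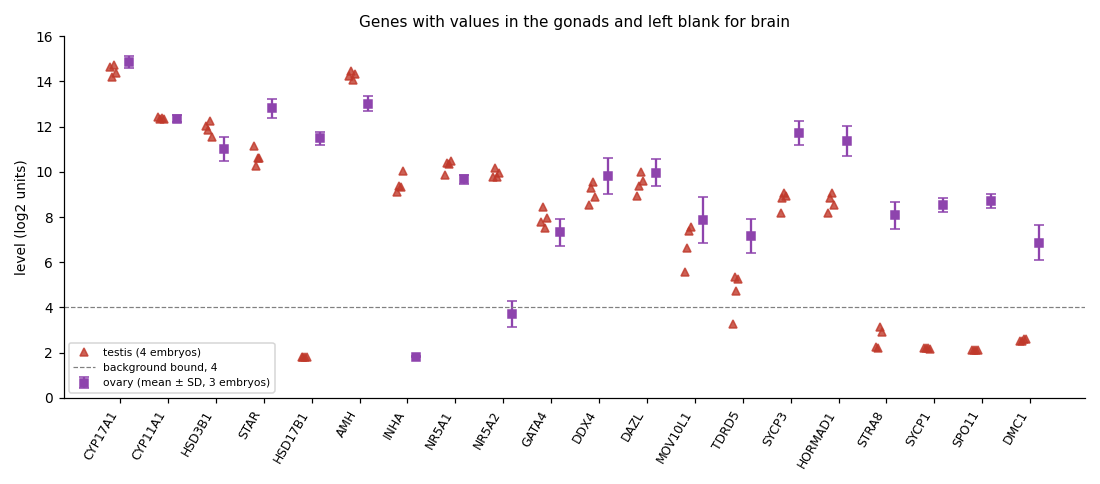
Levels (log2 units) of 20 genes of steroid synthesis, Sertoli cells, gonadal regulation, germ cells and meiosis that had values in the gonads and were left blank for brain. Red triangles are the 4 testes, purple squares the mean of 3 ovaries with SD, and the dashed line marks 4.0. STRA8, SYCP1, SPO11, DMC1 and HSD17B1 lay under the line in every testis. Genes with a testis mean under 4.0 had values only where the ovary mean reached 4.0, so their place above the line in the ovaries was fixed by the filter.

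Of 20 transcription factors of the gonad, 6 were left blank for brain, 5 were tested and 8 had no value. NR5A1, the regulator of steroidogenic genes, read 9.84, 10.38, 10.36 and 10.48 in the testes, NR5A2 9.78 to 10.16 and GATA4 7.53 to 8.43. Of the 5 tested, EMX2, LHX9 and NR2F2 rose by 2.24, 1.37 and 1.45, and none fell. A call of 1 lower gene was made under 9 of the alternatives, among them embryo as a block, centred arrays and leaving out brain 19, testis 16 or testis 9.

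Smooth muscle genes rose together: 8 of 8 tested members passed and in each the arrays did not overlap, with a median of 3.60. ACTG2 read 4.26, 4.91 and 4.41 in brain and 11.15, 11.50, 10.89 and 11.28 in testis, a 102-fold rise (6.68 ± 0.24, adjusted p = 1.29e-13). MYH11, the smooth muscle myosin heavy chain, rose 44.2-fold and the tropomyosin TPM2 16.7-fold. Of the listed genes 5 had gonad values only, among them KCNMB1, a potassium channel subunit of smooth muscle, at 11.27 to 11.45 in the testes. In the other direction 1 gene, TAGLN, was left blank for the gonads and read 6.01 to 6.11 in brain. ACTG2 and MYH11 rose more in testis than in ovary, by 6.09 ± 0.34 and 3.93 on the log2 scale, whereas TPM2 was not shown to differ between the sexes (0.13, adjusted p = 0.748).

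Extracellular matrix genes were mostly higher in testis, 22 of 26 with a median of 2.85, and 2 were lower. POSTN, a matrix protein of connective tissue, read 6.42, 7.51 and 6.29 in brain and 13.11, 13.65, 13.66 and 13.76 in testis, a 112-fold rise. The collagen VI chains COL6A1, COL6A2 and COL6A3 rose by 5.28, 5.05 and 4.50, and the laminin chain LAMB1 by 4.39. COL4A1 and COL4A2, the broadly used basement membrane collagens, did not pass, at 0.26 and -0.36, but another probe set of COL4A2 fell by 0.83 (adjusted p = 3.34e-05). MGP, an inhibitor of calcification, was 16.1-fold lower in testis and the proteoglycan VCAN 1.95-fold lower. Brain 19 had the highest mean over the 26 genes among the brains, 9.58 against 9.09 and 8.90, and COL3A1 there read 12.27 against 11.26 and 10.84. Without brain 19, 22 genes were still higher and 2 lower.

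Of Hedgehog signalling, by which Sertoli cells act on the interstitium, the RNA of most measured components was higher in testis. Activity of the pathway was not tested. Of 7 tested genes 6 rose and none fell, with a median of 1.53. PTCH1, the receptor and a target of the pathway, read 8.84, 9.08 and 8.76 in brain and 9.83 to 10.35 in testis (2.28-fold, adjusted p = 0.000738). SMO, GLI2, GLI3, SUFU and CDON rose by 1.04 to 1.88. PTCH1 differed between the sexes (2.53, adjusted p = 0.000147), and in ovary it was lower than in female brain by 1.34. The ligand DHH had no value in either tissue.

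Retinoic acid genes were mostly higher in testis, 5 of 7 tested, with 1 lower. Retinoic acid is made by the ALDH1A enzymes and broken down by CYP26 enzymes. ALDH1A3 read 11.03, 11.75, 11.13 and 11.55 in testis and 3.60, 5.71 and 4.00 in brain (122-fold, adjusted p = 1.42e-11), and ALDH1A2 was 11.9-fold higher. ALDH1A1, left blank for brain, read 14.03, 13.70, 13.97 and 13.80 in the testes against a mean of 6.14 in the ovaries. CYP26B1 read 5.73 to 6.61 in the testes and 3.09 ± 0.19 in the ovaries, and CYP26A1 was at background in the testes with a mean of 2.73. CRABP1, a cytoplasmic retinoic acid binding protein, was at least 12.1-fold lower in testis.

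Cell cycle genes were higher in testis in 30 of 33 cases and lower in none, with a median of 2.71. CDC20, an activator of the anaphase-promoting complex, read 6.10, 7.18 and 6.13 in brain and 11.57, 11.63, 11.57 and 11.38 in testis (33.6-fold, adjusted p = 6.41e-12). The mitotic cyclin CCNB1 rose 8.97-fold and the proliferation marker MKI67 6.97-fold. CDKN1B, a cell cycle inhibitor, stayed near 10.7 in both tissues (0.12 ± 0.11), and RRM1 and NUF2 did not pass, at 0.58 and 2.71. Another probe set of NUF2 rose by 2.88 (adjusted p = 2.42e-09). The NUF2 probe set at 2.71 passed with embryo as a fixed block, which leaves out testis 9 (2.82, adjusted p = 3.08e-05), and as a random block (2.72, adjusted p = 0.0336). It also passed in a fit of only the arrays compared (2.71, adjusted p = 1.79e-05) and with array weights (2.75, adjusted p = 0.0462). Of the listed genes 4 had brain values only, among them the mitotic kinase CDK1 at 8.98 to 9.62, and 4 had gonad values only, among them the mitotic kinase PLK1 at 9.31 to 9.50. The ovaries shared the pattern, with 29 of the 33 genes higher than in female brain.

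Ribosomal protein genes rose by small amounts. Of 56 tested, 48 rose, none fell and in 55 the testes lay above the brains. The median was 0.94, and the range 0.12 to 1.80. These counts take 1 probe set per gene. Other probe sets of RPSAP58 went both ways, lower at -1.45 (adjusted p = 6.42e-05) and higher at 1.38 and 1.33, while that at -0.65 did not pass. RPL29 read 13.36, 13.46 and 13.72 in brain and 15.10, 15.14, 15.05 and 15.13 in testis (1.60 ± 0.13, adjusted p = 4.32e-09). The number called moved with scaling and threshold: 42 rose with arrays centred on their medians, 36 after a new quantile normalization and 24 at a fold-change over 2, and none fell in any of these.

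**Figure D3:**
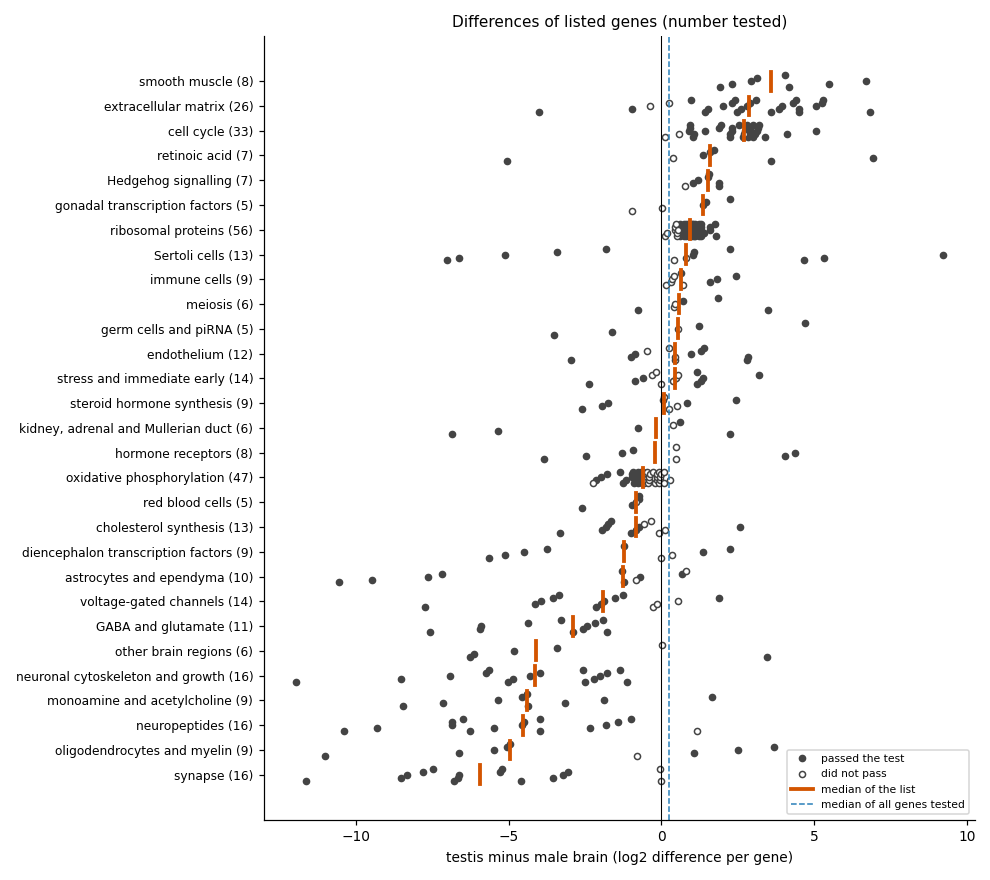
Log2 difference, testis minus male brain, of each tested gene (x axis) in 29 gene groups (rows, number tested in brackets). Filled points passed the test, open points did not, orange bars are group medians, and the dashed blue line is the median of all genes, 0.24. Groups of muscle, matrix and cell division lay to the right, and those of neurons and synapses to the left.

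Among the tested genes, the largest falls in testis were of genes of neurons and glia. STMN2, a regulator of microtubules in growing axons, read 15, 14.55 and 14.79 in brain and 2.57, 3.02, 2.66 and 3.07 in testis, at least 1760-fold lower (log2 difference -11.95 ± 1.16, adjusted p = 6.21e-07). The ovaries, which share the fit and its SE, had an SD of 3.82 for this gene. SNAP25, a protein of the vesicle fusion machinery, read 14.56, 14.82 and 14.58 in brain and 3.11, 2.97, 2.96 and 3.00 in testis, at least 1610-fold lower. MBP, a major protein of myelin, was at least 1200-fold lower, SLC1A3, the glutamate transporter of astrocytes, at least 577-fold, and SCG5, a chaperone of neuropeptide processing, at least 439-fold. Of the 15 genes with the largest falls, 13 had a testis mean under 4.0. NEFM, a neurofilament chain, was one of the others, with 5.88, 6.76, 6.07 and 6.89 in testis and 15.01, 15.10 and 14.63 in brain. ACHE, acetylcholinesterase, was the other, at 4.17 to 4.95 in testis and 12.53 to 13.25 in brain. The 13 genes with a testis mean under 4.0 had gonad values only through an ovary mean of at least 4.0. Genes with brain values that were left blank for the gonads could not enter this ranking.

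Neuronal cytoskeleton and growth genes fell in 16 of 16 tested cases, with a median of -4.14. MAPT, the tau protein, fell by 5.74, DPYSL2 by 3.98 and ELAVL2 by 1.12. Other probe sets of ELAVL2 gave -0.88, which passed, and -0.56 and -0.41, which did not. CNTN1, an axonal adhesion protein, read 5.2, 4.86, 8.63 and 4.99 in testis, so that testis 19 stood well above the other testes but below the brains, at 10.72 to 11.18. UCHL1 and ENO2, further neuronal genes, were left blank for the gonads and read 14.43 to 14.70 and 12.38 to 12.82 in brain. TUBB2A, a tubulin, and NEFL, a neurofilament chain, were instead left blank for brain and read 9.80 to 10.40 and 6.24 to 7.15 in the testes.

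Synapse genes fell in 14 of 16 cases, with a median of -5.94. With a mean of at least 4 required in both tissues, 7 of 9 fell, with a median of -3.56. SYT1, the calcium sensor of vesicle release, read 11.51, 11.68 and 12 in brain and 3.55, 4.23, 4.09 and 3.81 in testis, at least 212-fold lower. SNAP91 and SNCB were at least 317-fold and 206-fold lower, and STX1A and SYT11 fell by 5.22 and 3.05. The 2 genes that did not pass were RIMS1, for which another probe set fell by 3.62, and SHANK2, a postsynaptic scaffold. SHANK2 read 9.94, 9.74 and 10.62 in brain and 9.89, 10.28, 10.01 and 9.99 in testis, while the ovaries had it at 5.33 ± 0.14 (SD, n = 3). Another probe set of SHANK2 was higher in testis by 0.71 (adjusted p = 0.00433).

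Genes of GABA and glutamate transmission were lower in testis in all 11 tested cases, with a median of -2.91, and 14 more had brain values only. GAD1, which makes GABA, read 13.11, 13.41 and 13.30 in brain and 5.67, 5.45, 6.30 and 5.4 in testis (190-fold lower, adjusted p = 2.56e-11). GAD2, another GABA-making enzyme, and SLC32A1, the vesicular GABA transporter, were left blank for the gonads at 11.53 to 11.81 and 11.28 to 11.73 in brain. The glutamate receptor subunits GRIA2 and GRIA3 fell by 2.91 and 2.58. GRIA1 fell by 2.44 with overlap, and brain 19 read 3.79 against 7.30 and 8.36. Its call was lost without brain 16 (-2.04, adjusted p = 0.0744) or brain 21 (-1.51, adjusted p = 0.108). It was also lost in a fit of only the arrays compared (-2.44, adjusted p = 0.0656).

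Neuropeptide genes and the proteins that process them fell in 15 of 16 tested cases, with a median of -4.54. PENK, the enkephalin precursor, read 13.05, 13 and 13.03 in brain and 6.74, 6.71, 6.15 and 7.50 in testis (76.3-fold lower, adjusted p = 7.58e-11). With embryo as a fixed block, or without testis 9, 1 gene of this group rose. Somatostatin (SST1) was at least 429-fold lower, cholecystokinin (CCK) 22.7-fold and neuropeptide Y (NPY) 3.53-fold. NPY remained at 9.37 to 10.66 in the testes. GRP, the gastrin-releasing peptide gene, was the highest of all gonad genes left blank for brain, with 15.08, 15.04, 15.09 and 15.17 in the testes and 12.61 ± 0.66 in the ovaries. Hypothalamic peptide genes with brain values only included POMC at 6.44 to 7.58, PMCH at 5.97 to 7.42 and HCRT at 5.60 to 5.69.

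Monoamine and acetylcholine genes fell in 8 of 9 tested cases. SLC18A2, which loads monoamines into vesicles, read 9.94, 9.73 and 9.49 in brain and 2.54 to 2.58 in testis. TPH2, which makes serotonin in neurons, was 21.3-fold lower. SLC6A2, the noradrenaline transporter, was higher in testis by 1.67 ± 0.47 (adjusted p = 0.00627), although brain 19 at 7.54 overlapped testis 16 at 7.51.

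Voltage-gated channel genes were lower in testis in 10 of 14 tested cases and higher in 1, and 16 had brain values only, among them the sodium channel SCN2A at a mean of 11.84. KCNAB1, a potassium channel subunit, was at least 123-fold lower. DPP6, a companion subunit of A-type potassium channels, rose from 2.87, 3.61 and 3.92 in brain to 5.64, 5.31, 5.52 and 4.93 in testis (at least 2.55-fold, adjusted p = 2.8e-05).

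Glial genes were mixed. Of 9 oligodendrocyte genes 5 fell and 3 rose, with a median of -4.94. With a mean of at least 4 required in both tissues, 2 of 6 fell and 3 rose, with a median of 0.14. The myelin genes MBP, CNP and GPM6B fell, while PDGFRA, a marker of oligodendrocyte precursors that mesenchymal cells also express, was 12.8-fold higher in testis, ENPP6 5.72-fold and CLDN11, a tight junction claudin of myelin and of Sertoli cells, 2.12-fold. CLDN11 read 11.90, 11.30 and 11.38 in brain and 12.20, 13.15, 12.42 and 12.66 in testis, and another probe set of it did not pass (0.09). The call was lost without brain 19 (0.97) or brain 21 (1.01). Among 10 astrocyte and ependymal genes 7 fell and 1, vimentin (VIM), rose by 0.68, or by 0.56 and under the fold threshold without testis 16 or with arrays centred. With embryo as a fixed block 2 of these genes rose. FABP7, a fatty acid carrier of radial glia, fell 198-fold and PTPRZ1, a receptor phosphatase of glia, at least 395-fold. GFAP and AQP4, the astrocyte markers, had brain values only, at 10.11 to 11.10 and 8.38 to 9.30, and so did TTR, the carrier protein of the choroid plexus, at 14.54 to 14.58.

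Transcription factors of the diencephalon were lower in testis in 5 of 9 tested cases. GBX2, of the thalamus, read 9.99, 10.58 and 10.03 in brain and 5.55, 4.92, 4.97 and 4.91 in testis (34.5-fold lower), and ISL1, of hypothalamic neurons, was at least 20.7-fold lower. LHX9 and NR0B1, which are also gonadal regulators, were the 2 that rose. Of 6 tested genes that mark other brain regions 4 fell and 1, HOXB3, rose.

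Oxidative phosphorylation genes were lower in testis in 24 of 47 cases and higher in none, with a median of -0.60. NDUFS4, a subunit of complex I, read 11.69, 11.86 and 11.55 in brain and 9.80, 9.44, 9.44 and 9.50 in testis (4.44-fold lower, adjusted p = 1.53e-10). UQCR11 and COX8A, of complexes III and IV, fell by 1.97 and 1.78. Other probe sets of ATP5C1 and COX6C were higher in testis, by 1.60 and 1.36. The count was 30 with arrays centred on their medians and 6 at a fold-change over 2, and no gene rose in either.

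Cholesterol synthesis genes were lower in testis in 8 of 13 cases and higher in 1. HMGCS1, an early enzyme of the pathway, read 12.36, 12.64 and 12.34 in brain and 9.67, 8.83, 9.35 and 8.62 in testis (log2 difference -3.33, adjusted p = 3.28e-10). FDPS and LSS fell by 1.65 and 0.98. Other probe sets of LSS gave -0.82, which passed, and -0.06, which did not. NPC1, which releases cholesterol from lysosomes, was the gene that rose, 5.95-fold.

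Blanks in a tissue were not the same as low levels. The ribosomal protein genes RPL3 and RPL32 were left blank for brain at 14.65 to 14.71 and 14.80 to 15.02 in the testes, and RPL12 was left blank for the gonads at 13.39 to 13.54 in brain. Of the probe sets left blank for brain, 51.8% had values in heart, and of those left blank for the gonads 48.1%. No fold was computed for such genes.

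Genes of other cells that either piece could hold were counted in the same way. Of 5 red blood cell genes 4 were lower in testis and none higher. The globin gene HBA1 read 13.49, 13.72 and 13.30 in brain and 12.12, 13.22, 13.35 and 12.43 in testis, with testes 9 and 21 below the others. Its call was lost when testis 9, testis 21, brain 16 or brain 19 was left out. It was also lost in a fit of only the arrays compared (-0.72, adjusted p = 0.0741). The number of these genes called lower ran from 2 to 5 as single arrays were left out, and was 2 with embryo as a fixed block. Of 12 endothelial genes 5 rose and 3 fell, shares near those of all genes, with TIE1 6.89-fold higher and FLT1, a receptor of vascular growth factor, lower by 2.96. Of 9 immune genes 4 rose and none fell, and CSF1R, of macrophages, rose by 0.65, a call lost without brain 16, brain 21 or testis 21 (0.52 to 0.57). CD3D, a T cell gene left blank for brain, read 8.07 in testis 9 and 2.43 to 4.57 in the other testes. Of 6 tested genes of kidney, adrenal and Müllerian duct 2 rose and 3 fell, and only 1 rose without brain 16, brain 21, testis 16 or testis 21. UMOD, of the kidney tubule, was at 2.33 to 2.97 in the testes, DBH, of the adrenal medulla, at 2.35 to 2.40 and TH at 1.99 to 2.41, all at background. Of 14 stress and immediate early genes, which respond to handling of tissue, 5 rose and 3 fell, also near the shares of all genes. The part of blood, vessel and immune cells in the other differences was not tested.

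The tissue difference was then set against that of females, ovary minus female brain. It differed between the sexes in 1961 probe sets (14.6%), 930 of them with the male difference above the female one (6.92%) and 1031 below (7.68%). Where the testis mean was under 4.0, the filter fixed beforehand that the ovary was higher, and the reverse where the ovary mean was under 4.0. The same held for the brains of the sexes. More lay above than below with a mean of at least 4.0 required in both tissues, or at least 6 in a tissue. The same held with array weights and without brain 19, while most other alternatives kept more below. Which side has more is thus not settled. Of the 7822 probe sets called in males, 1482 also differed between the sexes and 6340 were not shown to differ. Calls went in opposite directions in 130 probe sets, 57 higher in testis and lower in ovary and 73 the reverse. In all 130 the sex difference itself was called, which the choice of opposite calls all but fixed beforehand. The gonad kit was the same in both sexes, as was the brain kit.

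Aromatase showed the largest sex difference below 0. CYP19A1 had a mean of 14.51 ± 0.06 (SD, n = 3) in the ovaries against 2.38 ± 0.03 (n = 4) in the testes, with 4.33 and 4.54 in male and female brain, and the male difference was lower by 11.92 ± 0.61 (adjusted p = 7.32e-08). The chemokine CXCL14 fell by 7.29 in testis against male brain but did not pass in ovary against female brain (0.08). PTPRZ1, at background in testis, was lower in ovary by 2.42, and the difference between the sexes was called. The defence peptide genes AvBD1, AvBD7 and DEFB4A and the chemotactic factor LECT2 were called in females only: they were higher in ovary by 5.36 to 6.83, and in testis their differences of -1.31 to 0.77 did not pass. The male minus female difference of these 4 genes was itself called, at -6.07 to -7.19. Their male levels were low: each had a mean under 4.0 in testis or male brain, and none reached a mean of 6 in either. In a tissue where the male mean was under 4.0, the filter fixed beforehand that the female mean was higher, though not by how much.

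In the other direction, COL9A3, a cartilage collagen chain, was 25.9-fold higher in testis than in male brain and lower in ovary than in female brain by 1.72 (male minus female difference 6.42 ± 0.68, adjusted p = 2.84e-05). SLCO4A1, a transporter of thyroid hormones and other anions, rose 10.6-fold in testis and fell by 2.74 in ovary. SOX9 and CLDN11 belonged here too: the ovaries had SOX9 at 3.00 ± 0.04, and the differences were 4.73 ± 0.44 and 5.57 ± 0.50. SOX9, CLDN11, SLCO4A1 and COL9A3 each carried a higher call in testis and a lower call in ovary. BHLHE22, a neuronal transcription factor, fell in both gonads, by 2.85 in testis and to a background mean of 3.84 in ovary, and its brain values were uneven at 9.73, 9.87 and 12.18.

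**Figure D4:**
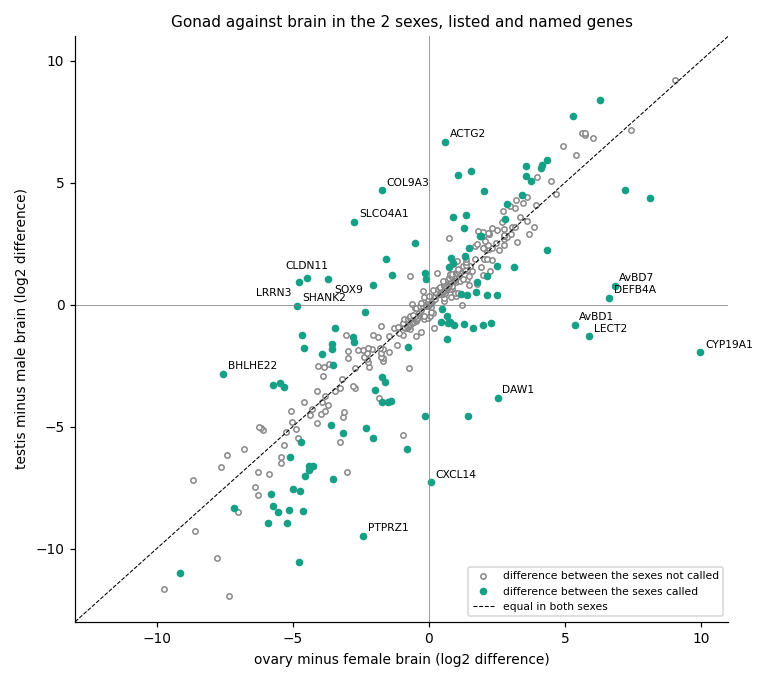
Log2 difference between testis and male brain (y axis) against that between ovary and female brain (x axis) for the listed and named genes. Green points had a called difference between the sexes, open points did not, the dashed line marks equal differences, and the 8 genes with the largest sex difference on either side are labelled. CYP19A1 lay farthest to the right of the line, and COL9A3, SLCO4A1 and ACTG2 lay above it.

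Genes on the Z chromosome, of which males carry a pair in both tissues, were called higher in testis in 41.8% and lower in 18.5% of 507 probe sets, against 35.3% and 22.7% of 10504 on autosomes. The median Z-linked level exceeded the median autosomal level by 0.39 to 0.50 in the testes and 0.37 to 0.42 in the brains. The difference between the tissues, 0.06, was not beyond the spread of the arrays (exact permutation test, two-sided, p = 0.114, where 0.0286 is the smallest p that 4 against 3 arrays allow). Its sign and call depended on the summary: it was -0.029 (exact permutation p = 0.486) with 1 probe set per gene and 0.252 (p = 0.0286) with means in place of medians. For probe sets with a mean of at least 6 in a tissue it was 0.109 (exact permutation p = 0.0286).

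Some genes differed between embryos in the same way in both tissues. In 23 probe sets the same embryo stood more than 2 log2 units apart from the other 2, on the same side, in brain and in testis. An embryo stood apart in brain in 76 probe sets, in testis in 74 and in both tissues in 30. In 7 of these 30 the embryo or the side was not the same. This rule and the genes named here were chosen after their values were seen. SRI, the calcium-binding protein sorcin, read 2.64, 11.81 and 10.41 in the brains and 2.63, 11.50 and 10.29 in testes 16, 19 and 21, and the hearts of these embryos gave 2.73, 11.14 and 9.89. SUCLG2, a subunit of succinyl-CoA ligase, was likewise at background in embryo 16, with 2.92 in brain, 2.68 in testis and 3.23 in heart, and between 9.04 and 10.77 elsewhere. NR2C1, a nuclear receptor, was low in embryo 19 and RDM1, a protein of DNA repair, in embryo 21. BG8, of the chicken major histocompatibility region on chromosome 16, was at 8.33 in the brain and 9.34 in the testis of embryo 21 and under 3 in embryos 16 and 19. Testis 9, which has no paired brain, was also high for BG8, at 8.31. Of 18 such probe sets with heart values, 14 showed the same embryo apart in heart. Of the 23, 2 were called between the tissues. With embryo as a fixed block, which leaves out testis 9, SUCLG2 (0.94, adjusted p = 0.0228), NR2C1 (1.35, adjusted p = 0.000121) and RDM1 (1.16, adjusted p = 0.0059) were called higher in testis. RNASEK, low in embryo 16, was called lower in testis with this block (-1.7, adjusted p = 7.31e-06). SRI and BG8 were not called.

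The brains also differed among themselves in genes that mark position along the body axis. Of 6 HOX genes tested, 5 spanned more than 2 log2 units among the brains, and brain 21 was the lowest in these 5. HOXA6 read 9.36, 5.94 and 2.12 in the brains and 8.51, 9.12, 8.28 and 8.36 in the testes, and HOXB3 read 7.01, 6.70 and 2.95 in the brains and 8.62 to 9.36 in the testes. HOXA3 and HOXB3 were called higher in testis, by 3.39 ± 1.17 and 3.44 ± 0.92. Without brain 21 the difference of HOXA3 was 1.97 and no longer passed (adjusted p = 0.126), and that of HOXB3 was 2.14 and passed (adjusted p = 0.0335). NEUROD6, a gene of the cerebral cortex left blank for the gonads, ran the other way at 4.75, 6.55 and 9.19. The part of uneven dissection in these values was not tested.

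**Figure D5:**
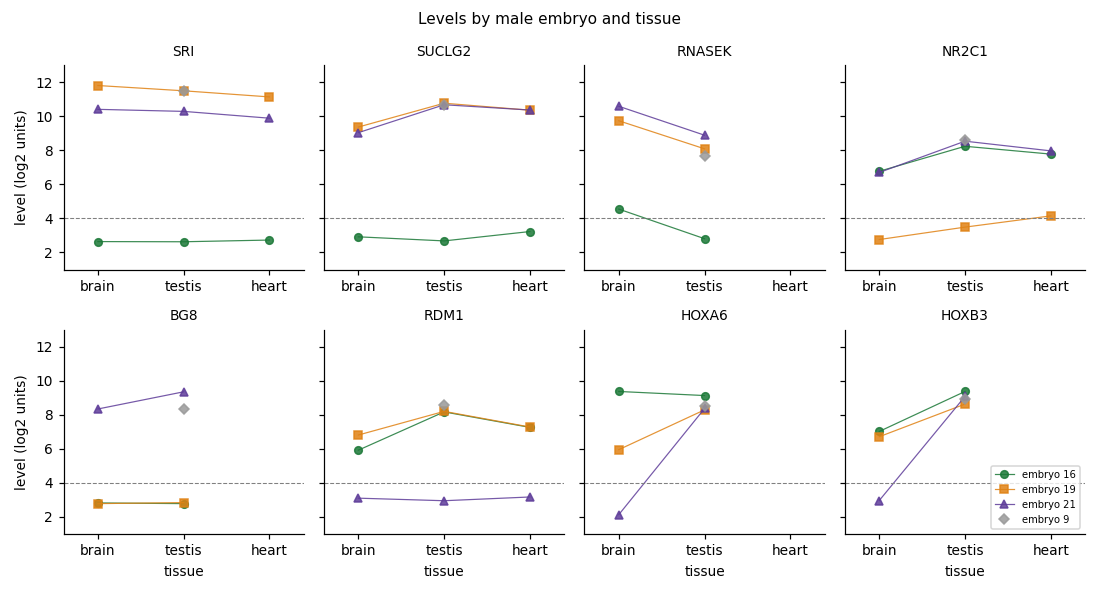
Levels (y axis, log2 units) of 8 genes in brain, testis and heart (x axis) of male embryos 16, 19, 21 and 9, with lines joining arrays of 1 embryo and the dashed line at 4.0. No heart values are drawn for RNASEK, BG8, HOXA6 and HOXB3, and embryo 9 has a testis point only. SRI and SUCLG2 were at background in every tissue of embryo 16, and HOXA6 and HOXB3 varied among the brains while the testes stayed together.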

How the data were processed

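RNA of brain, gonad and heart of 18-day embryos was hybridised to the Affymetrix chicken array, 1 array per tissue and embryo. The deposited log2 values were made by the authors in R 2.4.1 (GCRMA for the background, then quantile scaling between arrays and a median polish over probes), and the authors left a probe set blank in a tissue where it failed their filter on level and on MAS5 present calls. The depth of an array is not a count, so the number of arrays limits the precision. The GEO labels name a human array, but the probe sets are those of the chicken array that the methods name.

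The 13431 probe sets with values in both tissues were fitted with limma 3.58.1 in R 4.3.3 over all 21 arrays in 6 groups of sex and tissue, which share 1 estimate of the spread. The contrasts were testis minus male brain, and that difference minus ovary minus female brain. P-values were adjusted by Benjamini-Hochberg, with a threshold of 0.05 beside a 1.5-fold change. Where a gene had several probe sets, the one with the highest mean over the 7 arrays was taken, and 47 of 2629 such genes had calls both ways. Z-linked and autosomal medians were compared by an exact permutation test over arrays. On simulated data for the testis contrast with 13431 probe sets, 100 were changed 2-fold and 100 4-fold. Of these 65% and 98% were found, with 9 false calls. The noise was drawn independently for each array, and far fewer probe sets changed than were called in the data. These rates therefore need not carry over to the data. Python 3.11.15, numpy 2.4.6, pandas 2.3.3 and scipy 1.17.1 were used. Gene symbols and chromosomes came from RefSeq tables.

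Embryos of 1 number gave brain and gonad, so the numbers pair the samples. The deviations of brain and testis from their group means correlated at 0.432 in embryo 16, 0.298 in embryo 19 and 0.172 in embryo 21. Brain and testis of different embryos gave -0.397 to 0.171, so the value of embryo 21 does not stand apart from these. Alternatives were a fit of only the arrays compared, a block for embryo, array weights, other scalings, filters and fold thresholds, 1 probe set per gene and leaving out each array. Genes named were the 15 with the largest rise and the 15 with the largest fall among called genes without overlap, the 8 with the largest sex difference on each side, the 10 highest genes left blank in a tissue, and members of 30 gene lists. The members and lists were chosen with earlier results of these data known.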

Additional observations from a re-analysis of the deposited data

Results flagged for a closer look

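Among the genes named, 11 had 1 testis far from the other 3 by Dixon's test, which chance alone gives in about 1 in 20 groups. Testis 19 stood apart for ANO1 (11.75), MYH11 (9.32), CYP19A1 (2.42) and CNTN1 (8.63). Testis 9 stood apart for POSTN (13.11), PIWIL1 (7.32), GBX2 (5.55) and NDUFS4 (9.80). Testis 16 stood apart for CDKN1B (10.93) and DEFB4A (5.30), and testis 21 for PTPRZ1 (3.86). For CYP19A1, CDKN1B and NDUFS4 the gap was small in log2 units, and CYP19A1 and PTPRZ1 were at background.

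The tissue difference of a further set of named genes differed between the sexes by limma's test of the difference itself, given here as the male minus the female log2 difference. Above 0 it was largest for COL9A3 6.42, SLCO4A1 6.14, ACTG2 6.09, CLDN11 5.57, SHANK2 4.79, SOX9 4.73, BHLHE22 4.71 and INHBB 4.28. It was between 2 and 4 for MYH11 3.93, DPP6 3.47, ENPP6 3.03, HEMGN 2.65, PTCH1 2.53, VCAN 2.49, PDGFRA 2.32 and ANO1 2.13. Smaller values were found for KIT 1.93, NPY 1.73, COL6A1 1.71, SNAI1 1.57, OSMR 1.46, COL6A2 1.30, COL6A3 1.08, ACVR2B 1.02, MKI67 0.93 and MND1 0.71.

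Below 0 the difference was largest in size for CYP19A1 -11.92, CXCL14 -7.37, LECT2 -7.19, PTPRZ1 -7.06, DEFB4A -6.35, AvBD1 -6.18, AvBD7 -6.07 and SLC1A3 -5.79. It was intermediate for ACHE -3.84, LHCGR -3.74, SLC18A2 -3.65, RAD21L1 -3.03, SNAP91 -2.96, FABP7 -2.88, CRABP1 -2.75, GAD1 -2.56, MGP -2.52, PIWIL1 -2.48, PTGDS -2.45, SOX10 -2.37 and EMX2 -2.09. The other values were KCNAB1 -1.94, MBP -1.84, CDON -1.58, ID4 -1.53, GPM6B -1.33, FLT1 -1.22, SNCB -1.16, HBA1 -1.16 and PENK -1.14. Where the testis mean was under 4.0, the filter fixed beforehand that the ovary was higher, though not by how much. Among such genes were CYP19A1, PTPRZ1, SLC1A3, SLC18A2 and MBP. The reverse held for SOX9 and BHLHE22, whose ovary means were under 4.0.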

How the results depend on the processing

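No call of the testis against brain comparison changed direction under any of the 19 alternatives. Leaving out single arrays gave 4450 to 4666 probe sets higher in testis, 3087 to 3151 lower and 1741 to 1967 with a difference between the sexes. With 1 probe set per gene the counts were 2696, 1752 and 1167, because fewer features were tested. With embryo as a fixed block, which takes testis 9 out of the comparison since it has no paired brain, the counts were 4693, 3232 and 1883, and with embryo as a random block 4681, 3214 and 2204. Apart from HBA1, which lost its call with the fixed block (-0.50, adjusted p = 0.0597), NUF2, which gained one with either, and SUCLG2, NR2C1 and RDM1, which gained one with the fixed block, the pairing changed no other call of a gene named above. SRI, without a call, turned from 0.70 to -0.15 with the fixed block. The Z-linked difference was -0.029 with 1 probe set per gene. It was 0.252 with means and 0.109 for probe sets with a mean of at least 6 in a tissue (exact permutation p = 0.0286 in either case). Within embryos as a replicate block it was 0.045 (exact p = 0.25, the smallest that 3 pairs allow, with all 3 pairs above 0). It was 0.045 to 0.079 as single arrays were left out. The cause was not tested. Of 117 named genes with a call, 104 kept it under every alternative that tested them and 13 lost it under at least 1, and filters on low levels left 20 of the 117 out of 1 or 2 alternatives. The genes whose sign turned had no call: CDKN1B was -0.01 with centred arrays, RIMS1 0.01 with array weights, 0.00 after a new quantile normalization, and -0.07 to 0.05 as single arrays were left out, SHANK2 -0.24 to 0.20 as single arrays were left out, and DEFB4A -0.37 to 0.52. The 344 called probe sets with a lower mean under 4.0 have only a bound on their fold, and 3 to 4 arrays per tissue limit the precision of every difference.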
